A study of Mus musculus with 12 samples.

Results

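Expression of 34 genes of glycolysis and of the response to low oxygen was followed in mesenchyme of the embryonic mouse upper face. The genes were chosen by name: the glucose and lactate transporters, the enzymes from hexokinase to pyruvate kinase, lactate dehydrogenase A, the kinase Pdk1, the oxygen sensors and well-known targets of hypoxia-inducible factor (HIF). Their symbols matched 35 of the 53392 gene identifiers in the deposited tables. Aldoa matched 2 gene models, of which the scarcer, with a mean of 4.47 TPM (a level scaled for transcript length and library size) over the 12 libraries, was kept out of the counts below. Polyadenylated RNA was sequenced from 4 groups of 3 libraries, all on the 129S4 strain background. Palatal shelves at embryonic day E13.5 came from Pdgfra+/+ embryos (WT) and from Pdgfra PI3K/PI3K embryos (PI3K), which carry a knock-in allele of the PDGFRα receptor that cannot bind phosphoinositide 3-kinase. Maxillary processes, from which the palatal shelves later grow, were taken at E11.5. Their embryos were all Srsf3 fl/fl, and either lacked Cre (Wnt1-Cre+/+, control) or carried it (Wnt1-Cre+/Tg, labelled cKO). Wnt1-Cre is active in neural crest and its descendants, so blood, vessels and residual ectoderm keep the floxed Srsf3 allele, which encodes a splicing factor. Sexes were not given in the labels, and nothing there says whether a library came from 1 embryo or from several.

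Glycolysis splits glucose into pyruvate in the cytosol, with hexokinase and phosphofructokinase as its main control points. When oxygen is short, prolyl hydroxylases encoded by Egln1 and Egln3 no longer mark the HIF α subunits for destruction. HIF then binds short DNA elements with the core ACGTG or GCGTG near its target genes, and raises glucose uptake, glycolytic enzymes, lactate output and the signal for vessel growth, Vegfa. Because the α subunit is controlled mainly as a protein, Hif1a RNA need not follow HIF activity. Neural crest, the source of facial mesenchyme, is known for its reliance on glycolysis.

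The palatal libraries held 30.5 to 37.4 M estimated counts (M, megacounts) and the maxillary libraries 15.9 to 27.9 M. Srsf3, the gene targeted in the maxillary design, stood at 468, 669 and 622 CPM (counts scaled to library size) in the libraries labelled cKO against control values of 597, 578 and 547 CPM, a log2 fold change of 0.03 (SE 0.14, adjusted p = 0.954 by edgeR). Its gene total was thus not lower in the group labelled cKO taken as a whole. Library 1 labelled cKO lay below every control, and the other libraries labelled cKO lay above every control. A gene total need not show the loss of some exons. Pdgfra differed by 0.02 (SE 0.10) between the palatal groups, and its knock-in allele is not visible in a gene total. Markers of mesenchyme were present, with 8 of 8 cranial mesenchyme genes at a summed 2125 to 6827 TPM, which does not give its share of the cells. Of the other cell types, red blood cell markers summed to 4667 to 40472 TPM, endothelial markers to 205 to 487 TPM and ectoderm markers to 315 to 717 TPM in the palatal shelf and 1.66 to 14.2 TPM in the maxillary process. For the genes described here 2 libraries stood apart from the rest, PI3K library 2 and library 1 labelled cKO. Where a difference between genotypes rests on them, the main counts and fold changes are also given without them.

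Promoters are shown first, since most members hold a core of the HIF element there. Whether it bears on their levels was not tested. The members were chosen in part as well-known HIF targets, so the choice itself favours this element and the shares below only describe it. In the 250 bases before the RefSeq gene start (build GRCm38.p6), the letters ACGTG were found on either strand in 20 of the 31 member genes that had a promoter entry (64.5%), against 18.5% of 27025 genes and 24.3% of the 11797 genes that were also tested in the palatal shelf. The letters GCGTG were in 21 of 31 (67.7%), against 30.9% and 48.4%, and 1 or the other was in 29 of 31 (93.5%), against 41.5% and 59.6%. Gpi1 and Tpi1 held neither. A gene with several starts counted if any of them held the letters. Counted per start, ACGTG was in 22 of the members' 47 promoters (46.8%), against 16.6% of 32851 promoters and 20.7% of the 15092 promoters of genes tested, and either core in 39 of 47 (83.0%), against 38.6% and 53.7%. The palindrome CACGTG counts on both strands. Both cores contain CG, and the members' promoters had a median of 19 CG dinucleotides, against 16 in the genes tested and 6 in all genes. The sequences below run 5′ to 3′ on the strand of the gene and end at the base before its start, with every match to either core, read on either strand, in capitals. The first 5 are genes with large fitted differences or small unadjusted p between genotypes. None of them had an adjusted p under 0.05 by edgeR there. Hif1a is a contrast, since it holds ACGTG but hardly varied.
Ankrd37 (chr8:45999851-46000100, minus strand): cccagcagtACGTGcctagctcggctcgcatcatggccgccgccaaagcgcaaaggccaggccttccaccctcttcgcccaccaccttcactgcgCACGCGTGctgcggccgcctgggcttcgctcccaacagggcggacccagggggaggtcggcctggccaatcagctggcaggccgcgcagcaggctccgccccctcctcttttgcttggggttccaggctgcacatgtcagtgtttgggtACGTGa
Bnip3 (chr7:138909507-138909756, minus strand): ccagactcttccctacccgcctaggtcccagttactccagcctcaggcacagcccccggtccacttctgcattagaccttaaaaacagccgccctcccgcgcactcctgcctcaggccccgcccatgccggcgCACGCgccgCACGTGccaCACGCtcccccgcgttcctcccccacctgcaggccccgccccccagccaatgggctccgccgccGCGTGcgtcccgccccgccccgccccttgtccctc
Slc2a1 (chr4:119108495-119108744, plus strand): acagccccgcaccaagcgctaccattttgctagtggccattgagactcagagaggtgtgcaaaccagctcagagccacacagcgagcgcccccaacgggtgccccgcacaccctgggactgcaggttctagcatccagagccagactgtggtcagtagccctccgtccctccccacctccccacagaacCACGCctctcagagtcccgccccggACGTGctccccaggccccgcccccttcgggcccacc
Ldha (chr7:46845554-46845803, plus strand): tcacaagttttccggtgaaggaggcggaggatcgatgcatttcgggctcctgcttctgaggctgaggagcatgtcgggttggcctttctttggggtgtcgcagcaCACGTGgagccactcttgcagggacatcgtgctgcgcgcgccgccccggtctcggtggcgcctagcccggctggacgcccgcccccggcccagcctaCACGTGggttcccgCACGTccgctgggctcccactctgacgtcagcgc
Pgk1 (chrX:106186850-106187099, plus strand): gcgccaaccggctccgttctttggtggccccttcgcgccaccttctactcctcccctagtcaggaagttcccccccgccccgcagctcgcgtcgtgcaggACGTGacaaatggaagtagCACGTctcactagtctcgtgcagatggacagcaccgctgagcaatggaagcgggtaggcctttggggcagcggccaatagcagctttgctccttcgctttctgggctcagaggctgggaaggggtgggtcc
Hif1a (chr12:73907617-73907866, plus strand): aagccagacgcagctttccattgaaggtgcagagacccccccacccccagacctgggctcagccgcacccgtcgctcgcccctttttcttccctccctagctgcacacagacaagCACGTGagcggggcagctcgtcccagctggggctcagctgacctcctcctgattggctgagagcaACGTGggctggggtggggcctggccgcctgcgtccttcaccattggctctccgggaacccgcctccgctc
Ldha held 5 matches and Bnip3 5, Ankrd37 4, Hif1a 3, and Slc2a1 and Pgk1 2 each. Matches describe letters only. Pfkm, which also held ACGTG, was as flat across libraries as Hif1a.

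The enzymes differed widely in level. On the TPM scale, which corrects for transcript length, the mean over the 12 libraries was 3006 for Gapdh, which makes the first high-energy intermediate, 1209 for the pyruvate kinase gene Pkm, 839.9 for Ldha and 777 for Aldoa. The isoenzymes were unequal. Aldoa exceeded Aldoc, whose mean was 7.88 TPM, in every library. Among the phosphofructokinases Pfkl (mean 126 TPM) lay above Pfkm (58.5 TPM) and Pfkp (9.31 TPM). Hk1 and Hk2, the hexokinases that trap glucose in the cell, had similar means of 42.4 and 37.7 TPM and their ranges over libraries overlapped. The lowest members were Car9, a carbonic anhydrase of the cell surface, with a mean of 1.04 TPM, and Adm, which encodes the vasoactive peptide adrenomedullin, with 2.5 TPM.

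**Figure D1:**
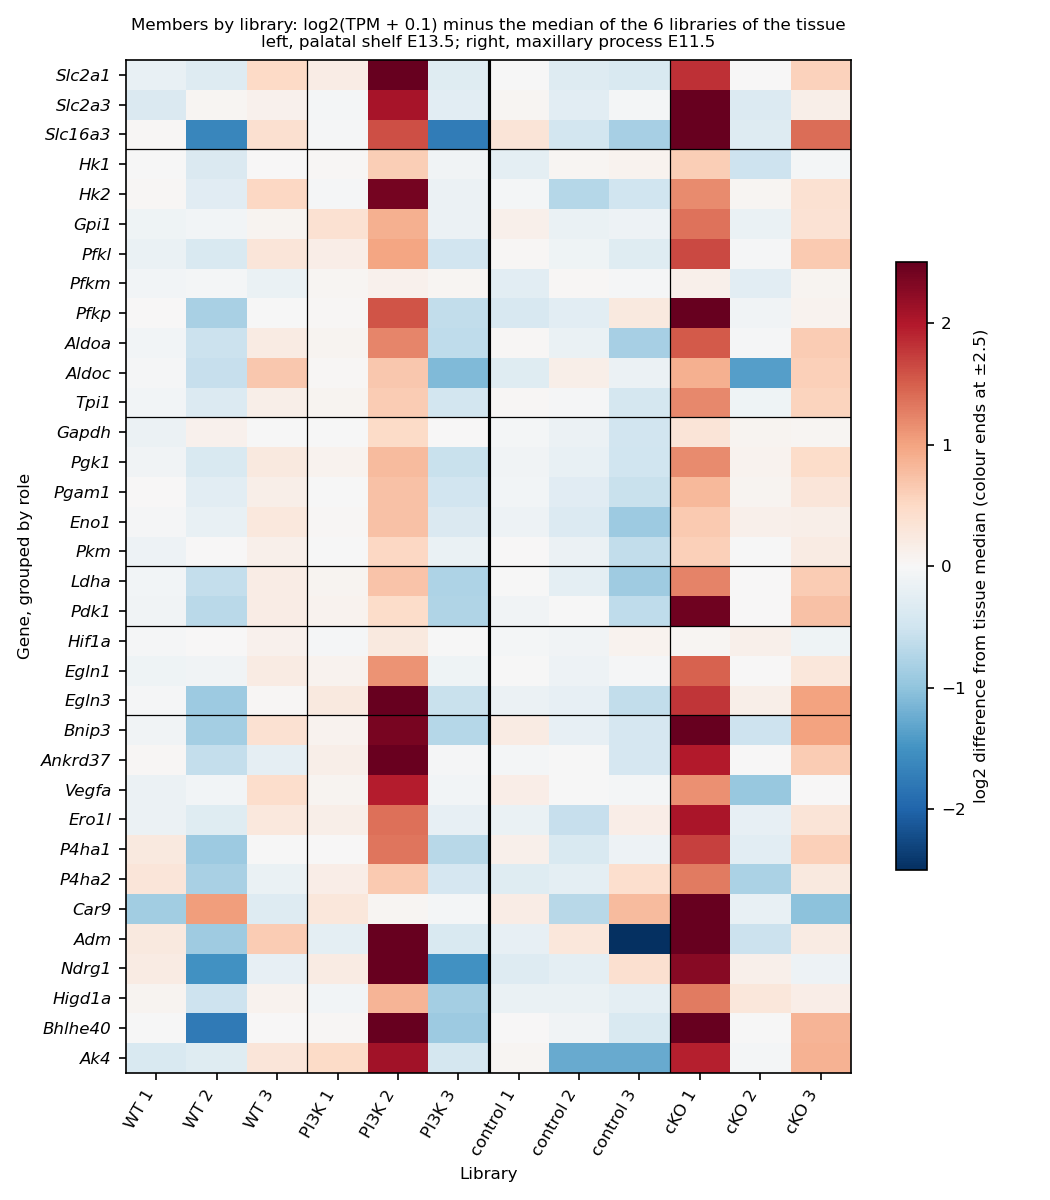
Log2(TPM + 0.1) of each member (rows, grouped by role) in each library (columns), minus the median of the 6 libraries of its tissue, with red above and blue below that median and the colour scale ending at ±2.5. Nearly the whole column is red in PI3K library 2 and in library 1 labelled cKO, while Hif1a and Pfkm stay pale throughout.

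In the palatal shelf, 33 of 34 members had a higher fitted level in PI3K than in WT (48% of all genes did), with a median log2 fold change of 0.44 against -0.01 over all 16525 genes tested, yet 0 members passed a false discovery rate (FDR) of 0.05. The background was the same, since 0% of all genes passed by edgeR. At an unadjusted p under 0.05 there were 0 members, where 2.14% of all genes passed, and DESeq2 called 4 genes (0.0145%) and 0 members. By TPM the 2 groups did not overlap for 1 of 34 members, Pfkm, against 6.55% of all genes, and by CPM for 0 of 34, against 6.23%. The higher means came from 1 library. PI3K library 2 had the highest TPM of the 6 for 32 of 34 members, while it was highest for 22.8% of all genes, and PI3K library 3 was the lowest PI3K library for 33 of 34 by CPM. Without PI3K library 2 the median was -0.11, with 8 members higher and 26 lower. With 3 libraries a group, each p-value here sets a difference against the spread between these libraries only, moderated across genes by edgeR. Whether that spread is one between single embryos is not known. In bulk tissue, more cells that express a gene and more RNA per cell cannot be told apart.

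The transporters were strongly raised in that library. Slc2a1 (ENSMUSG00000028645.11; GRCm38 chromosome 4, 119108711 to 119137983, plus strand, protein-coding), the main glucose importer of embryonic tissue, had 75.02, 67.8 and 120.5 TPM in WT and 96.8, 603 and 68.9 TPM in PI3K. PI3K library 2 was thus 7.27 times the mean of the other PI3K libraries, which lay inside the WT range. Its log2 fold change was 1.56 (SE 0.79), with a 95% interval from -0.30 to 3.42 (adjusted p = 0.9997 by edgeR), and it was -0.08 without that library. Slc2a3, a glucose transporter of high affinity, had 12.2, 16.2 and 16.9 TPM in WT and 15.1, 65.2 and 13.1 TPM in PI3K. The lactate exporter Slc16a3 had 54.9, 17.4 and 70.8 and 52.7, 165 and 16.02 TPM. WT library 2 and PI3K library 3 were both low for Slc16a3, and the groups overlapped for all 3 transporters.

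Among the enzymes of glycolysis Hk2 stood furthest above its group in the same library. Hk2, the inducible hexokinase, had 25.04, 20.2 and 35.1 TPM in WT and 23.95, 129 and 22.2 TPM in PI3K, so library 2 stood 5.61 times above the other PI3K libraries. The constitutive Hk1 stood only 1.57 times above them. The aldolase Aldoa had 589.8, 424 and 711 TPM in WT and 648, 1443 and 396 TPM in PI3K. The phosphofructokinase Pfkp had 6.44, 3.59 and 6.39 and 6.57, 19.2 and 4.13 TPM, and its isoenzyme Pfkl 87.4, 75.2 and 121 and 109, 194 and 69.96 TPM. Pfkm had 54.9, 55.8 and 51.5 TPM in WT and 59.9, 62.4 and 59.8 TPM in PI3K. By TPM every PI3K value lay above every WT value with no library apart, but by CPM the groups overlapped. For the remaining upper enzymes Gpi1 and Tpi1, which isomerise glucose 6-phosphate and triose phosphate, the ratio of PI3K library 2 to the other PI3K libraries was 1.69 and 1.77. Aldoc was an exception to the ranking, with 12.7, 8.6001 and 20.7 TPM in WT and 13.1, 20.6 and 5.96 TPM in PI3K. In the lower part of the pathway the ratio ran from 1.39 for Gapdh to 1.99 for Pgk1, the phosphoglycerate kinase that yields ATP. Ldha, which turns pyruvate into lactate, had 654, 456 and 777 TPM in WT and 722, 1129.8 and 405 TPM in PI3K. Pdk1, the kinase that keeps pyruvate out of the mitochondrial citrate cycle, had 46.4, 30.9 and 55.9 and 52.6, 67.98 and 29.2 TPM. The 16 gene models of the enzymes, Ldha included, together held 10362 TPM in PI3K library 2 and 5278 to 6911 TPM in the other palatal libraries.

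The oxygen-sensing genes split. Hif1a had 59.8, 61.4 and 65.8 TPM in WT and 59.5, 72.03 and 60.2 TPM in PI3K, a log2 fold change of 0.04 (SE 0.10). Egln1, the main hydroxylase that senses oxygen, had 45.5, 45.9 and 56.5 and 52.5, 106 and 45.8 TPM. Egln3, a hydroxylase that HIF itself induces, had 10.9, 5.91 and 11.4 TPM in WT and 13.2, 75.6 and 7.57 TPM in PI3K. Of the other PI3K values of Egln3, 1 lay within the WT range and 1 just above it. Its log2 fold change was 1.795 (SE 0.83) (edgeR unadjusted p 0.0652, adjusted 0.9997) and 0.13 without library 2.

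Hypoxia response genes showed the largest ratios. Adm (ENSMUSG00000030790.15; GRCm38 chromosome 7, 110627661 to 110629820, plus strand, protein-coding) had 0.8196, 0.317 and 1.0996 TPM in WT and 0.549, 16.02 and 0.497 TPM in PI3K, so library 2 was 30.6 times the mean of the other PI3K libraries. Its log2 fold change of 2.93 (SE 1.37) had an interval of -0.28 to 6.15 and was -0.51 without that library. Bhlhe40, a repressor of transcription tied to circadian and hypoxic responses, had 10.5, 3.04 and 10.7 TPM in WT and 10.8, 78.6 and 5.63 TPM in PI3K. Here the log2 fold change was 2.03 (SE 0.99), and 0.05 without library 2. Ndrg1, a stress-induced gene, had 30.7, 9.302 and 23.1 and 30.6, 151 and 9.21 TPM, a log2 fold change of 1.64 (SE 0.94) that was -0.06 without library 2. Low values of Ndrg1 occurred in both groups, in WT library 2 and in PI3K library 3. Ankrd37 (ENSMUSG00000050914.16; GRCm38 chromosome 8, 45996902 to 46005707, minus strand, protein-coding), whose ankyrin-repeat product has few known functions, had 12.9, 8.32 and 10.8 TPM in WT and 13.99, 70.8 and 12.4 TPM in PI3K. It had the smallest p of the members, 0.0543 unadjusted and 0.9997 adjusted by edgeR, with a log2 fold change of 1.57 (SE 0.69) that was 0.30 without library 2.

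Bnip3 (ENSMUSG00000078566.8; GRCm38 chromosome 7, 138890836 to 138909519, minus strand, protein-coding), which promotes the removal of mitochondria, had 58.6, 34.3 and 80.9 TPM in WT and 66.1, 322 and 37.9 TPM in PI3K. Vegfa had 72.95, 76.8 and 109 and 83.8, 314 and 77.2 TPM. Library 2 again held the highest value of both. The collagen prolyl hydroxylase subunits P4ha1 and P4ha2 stood 3.09 and 1.69 times above the other PI3K libraries there, the oxidase of the endoplasmic reticulum Ero1l 2.62 times, the mitochondrial adenylate kinase Ak4 4.04 times and Higd1a, a small mitochondrial protein, 2.38 times. Car9 did not follow. It had 0.329, 1.52 and 0.525 TPM in WT and 0.853, 0.7097 and 0.662 TPM in PI3K, with its maximum in WT library 2. The 12 hypoxia response genes summed to 1472 TPM in PI3K library 2 and to 278 to 474 TPM elsewhere in the palatal shelf. Endothelial markers summed to 329.9 TPM in that library and to 267 to 329.6 TPM in the others, and red blood cell markers to 4667 TPM, the lowest of the 6. Within PI3K the ectoderm markers followed the same order as the members, at 686, 717 and 315 TPM, with 7 of 9 highest in library 2 and 9 of 9 lowest in library 3. In WT they did not, at 509, 645 and 705 TPM. There 8 of 9 ectoderm markers were lowest in library 1 by CPM, and 27 of 34 members in library 2. The part of these other cells in the result was not tested.

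**Figure D2:**
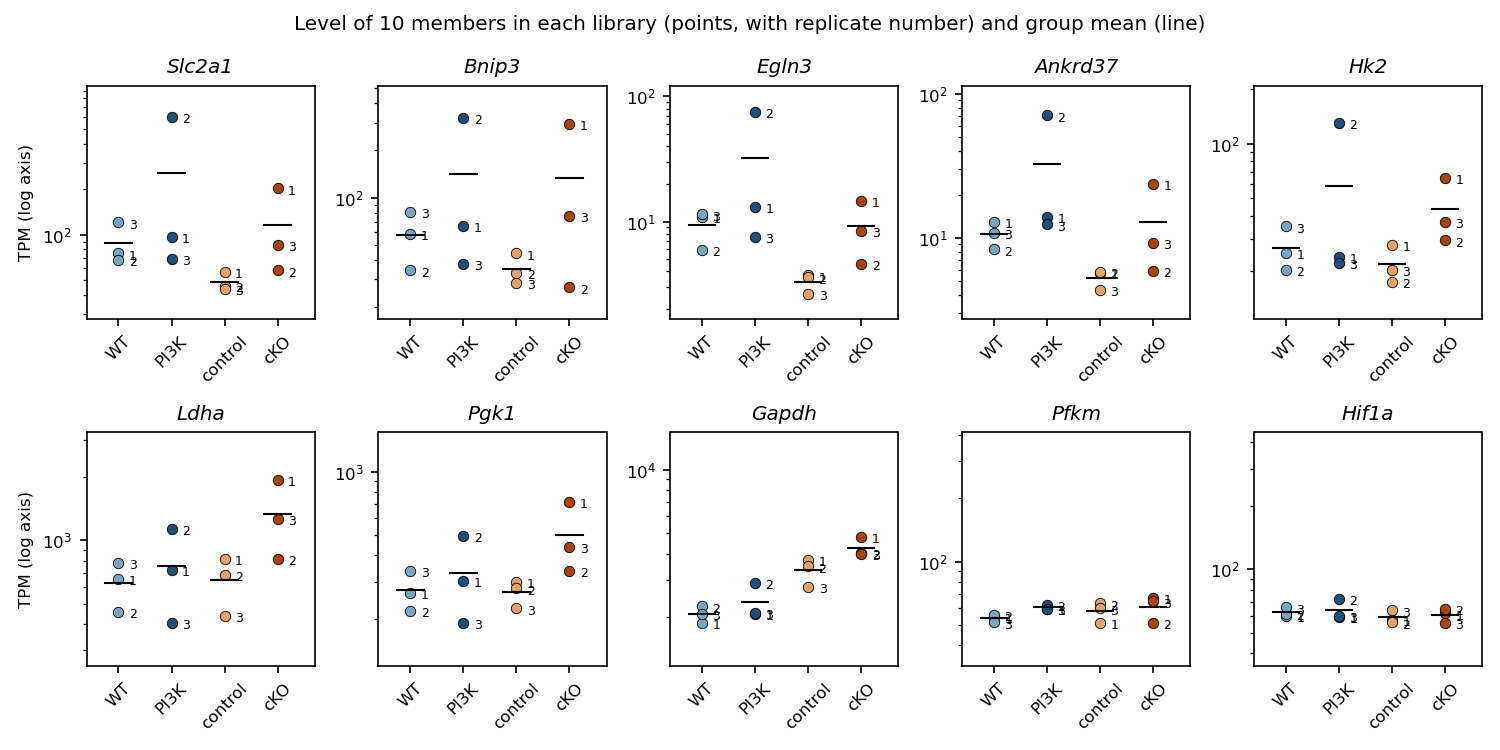
TPM of 10 members in each library (log axis, points numbered by replicate) with the group mean as a line. PI3K library 2 and library 1 labelled cKO lie apart for Slc2a1, Bnip3, Egln3, Ankrd37 and Hk2, and the points of Pfkm and Hif1a lie close together in all 4 groups.

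In the maxillary process most members had a higher fitted level in the libraries labelled cKO, but by edgeR no member passed the FDR threshold. Of 34 members 33 passed the filter on low counts (Car9 did not), and 32 of them had a positive log2 fold change, where 50.7% of all genes did. The median was 1.09, against 0.00 over all 14254 genes tested. By edgeR 0 of 33 passed the FDR of 0.05, with a smallest adjusted p of 0.2795, where 12 genes passed in all, or 0.0842%. At an unadjusted p under 0.05 there were 25 members, all higher, where 6.34% of all genes did so in that direction. By TPM the 2 groups did not overlap for 12 of the 33, all of them higher in the libraries labelled cKO, against 6.36% of all genes. By CPM, as used in the test, the number was 18, against 8.76%. DESeq2 called 5 members, Egln3, Eno1, Hk2, Pgam1 and Pgk1, with adjusted p from 0.0052 to 0.0149, where it called 376 genes, or 1.6% of all. Library 1 labelled cKO had the highest TPM of the 6 for 33 of 34 members, against 21.2% of all genes. Hif1a was the exception. Library 2 labelled cKO was the lowest of its group for 30 of 33 by CPM, and control library 3 was the lowest of the 6 for 18 of 34 by TPM. Without library 1 labelled cKO the median was 0.42, with 28 members higher and 5 lower, and 9 had an unadjusted p under 0.05, all higher, where 5.4% of all genes did so in that direction. That number was 10 without control library 2 and 8 without control library 3. In those fits 6.88% and 8.41% of all genes had such a p in either direction.

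**Figure D3:**
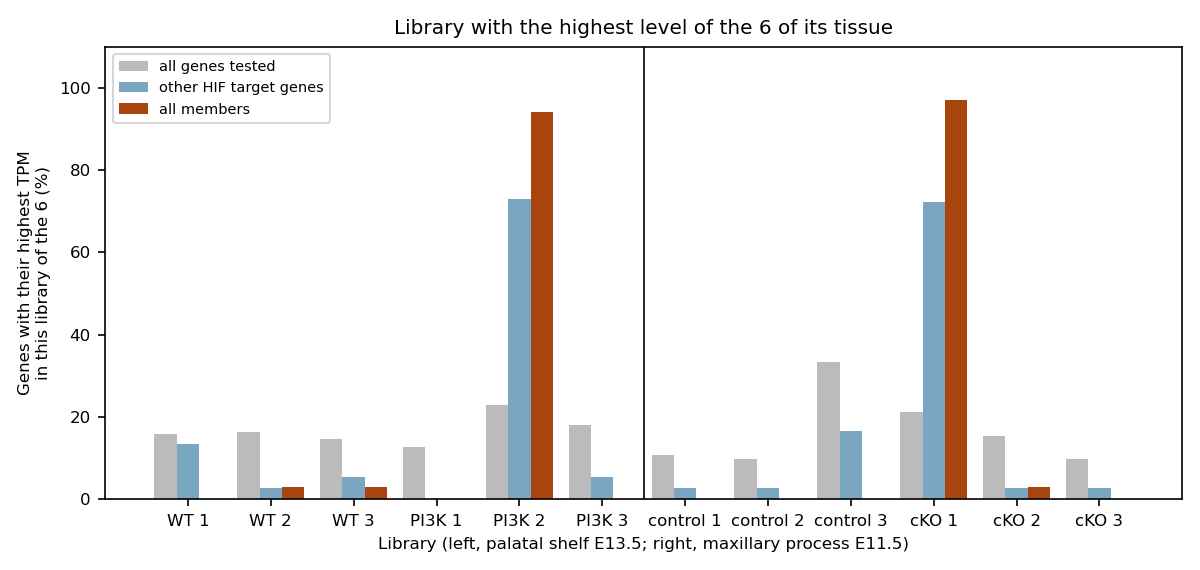
Percent of genes whose highest TPM among the 6 libraries of a tissue fell in each library, for all genes tested (grey), other HIF target genes (blue) and the members (brown). The members' maxima fell in PI3K library 2 (32 of 34) and in library 1 labelled cKO (33 of 34), and the other HIF targets peaked there in 27 of 37 and 26 of 36.

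In the lower part of glycolysis all 5 genes were higher at an unadjusted p under 0.05, against 6.34% of all genes. Without library 1 it was 3 of 5, against 5.4%. By TPM the groups did not overlap for 4 of the 5, all but Pkm, against 6.36% of all genes. Pgk1 (ENSMUSG00000062070.12; GRCm38 chromosome X, 106187100 to 106203699, plus strand, protein-coding) had 301, 279 and 224 TPM in the controls and 719, 337 and 438 TPM in the libraries labelled cKO, each of the latter above each control. Its log2 fold change was 0.94 (SE 0.28) with an adjusted p of 0.295 by edgeR, and 0.57 without library 1. Pgam1, the phosphoglycerate mutase, had 485, 418 and 347 TPM in the controls and 897, 537 and 629 TPM in the libraries labelled cKO. The difference was 0.77 (SE 0.22) on the log2 scale (adjusted p = 0.289 by edgeR), and 0.52 without library 1. Eno1, the enolase of most tissues, had 802, 686 and 464 TPM in the controls and 1382, 953 and 973 TPM in the libraries labelled cKO. For Eno1 the log2 fold change was 0.86 (SE 0.25), with an adjusted p of 0.292 by edgeR, and 0.64 without library 1. Gapdh had 3721, 3477 and 2783 and 4803, 4018 and 3999 TPM, and Pkm 1466, 1327 and 952 and 2216, 1455 and 1676 TPM, with log2 fold changes of 0.40 and 0.55. Without library 1 these were 0.30 and 0.36, with unadjusted p of 0.105 and 0.130 by edgeR.

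Among the upper enzymes 6 of 9 were higher at an unadjusted p under 0.05, against 6.34% of all genes. Without library 1 it was 1 of 9, against 5.4%. Hk2 had the smallest p of the 9. It had 27.6, 17.3 and 20.2 TPM in the controls and 64.8, 29.4 and 37.03 TPM in the libraries labelled cKO, a log2 fold change of 0.99 (SE 0.31) with an adjusted p of 0.309 by edgeR. Without library 1 it was 0.59. Hk1 (33.04, 40.5 and 41.7 TPM in the controls, 60.04, 27.4 and 37.6 TPM in the libraries labelled cKO) overlapped between groups, and so did Pfkm (51.2, 63.3 and 59.95 TPM and 67.4, 51.2 and 64.8 TPM). The largest excess in library 1 was that of Pfkp, the platelet-type isoenzyme, with 4.04, 4.43 and 6.34 TPM in the controls and 39.9, 4.99 and 5.69 TPM in the libraries labelled cKO. Its difference shrank from 2.005 to 0.42 without that library. Aldoa had 661, 574 and 366 and 1881, 632 and 997 TPM, with library 2 labelled cKO below control library 1. Aldoc, the scarce isoenzyme, ranged from 0.697 to 3.69 TPM, both within the libraries labelled cKO.

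The transporters and the enzymes that settle the fate of pyruvate went the same way. At an unadjusted p under 0.05 by edgeR, 3 of 3 and 2 of 2 were higher, against 6.34% of all genes. Without library 1 labelled cKO it was 1 of 3 and 0 of 2, against 5.4%. Slc2a1 had 56.8, 45.8 and 43.9 TPM in the controls and 202, 57.97 and 85.8 TPM in the libraries labelled cKO, with library 2 only just above the highest control. Slc2a3 had 7.48, 5.97 and 6.96 and 59.9, 5.71 and 7.997 TPM, and Slc16a3 48.9, 28.5 and 22.2 and 261, 31.6 and 103 TPM. The ratio of library 1 to the other libraries labelled cKO was 8.74 for Slc2a3 and 3.87 for Slc16a3. Ldha (ENSMUSG00000063229.15; GRCm38 chromosome 7, 46841475 to 46855627, plus strand, protein-coding) had 813, 682 and 438 TPM in the controls and 1928, 814 and 1259.7 TPM in the libraries labelled cKO, a log2 fold change of 1.09 that was 0.72 without library 1. Pdk1 had 23.3, 24.4 and 15.9 and 134, 25.1 and 41.02 TPM. Summed over the 16 gene models of the enzymes with Ldha, the level was 16114 TPM in library 1 labelled cKO and 6374 to 11284 TPM in the other maxillary libraries.

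Egln3 had the smallest p among the members. Its levels were 3.71, 3.59 and 2.65 TPM in the controls and 14.6, 4.59 and 8.38 TPM in the libraries labelled cKO, with no overlap. The log2 fold change was 1.51 (SE 0.41), the interval 0.55 to 2.47, the unadjusted p 0.00706 and the adjusted p 0.2795 by edgeR. It was 1.002 without library 1. Egln1 had 41.5, 38.002 and 41.2 TPM in the controls and 117, 42.1 and 51.1 TPM in the libraries labelled cKO. Hif1a had 57.5, 55.8 and 63.7 and 61.7, 64.8 and 55.6 TPM, a log2 fold change of 0.09 (SE 0.09).

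Among the 11 hypoxia response genes tested, 7 were higher at an unadjusted p under 0.05, against 6.34% of all genes. Without library 1 it was 2, against 5.4%. By TPM the groups did not overlap for 2, against 6.36% of all genes. Ak4 had the smallest p of the 11. It had 13.1, 5.24 and 5.22 TPM in the controls and 49.2, 12.3 and 23.2 TPM in the libraries labelled cKO, a log2 fold change of 1.72 (SE 0.49) with an adjusted p of 0.285 by edgeR, and 1.17 without library 1. Its library 2 labelled cKO lay below control library 1 by TPM. Bnip3 had 43.99, 32.9 and 28.5 TPM in the controls and 295, 26.7 and 76.2 TPM in the libraries labelled cKO. The lowest of these 6 values, like the highest, was in a library labelled cKO. The same was true of Vegfa, with 43.5, 38.4 and 37.2 TPM and 84.9, 19.9 and 38.9 TPM, and of P4ha2, with 26.9, 27.9 and 44.7 TPM and 82.2, 19.3 and 39.7 TPM. Without library 1 the log2 fold change of Vegfa went from 0.39 to -0.22, and that of P4ha2 from 0.65 to -0.13. Ankrd37 had 5.697, 5.81 and 4.35 and 23.6, 5.93 and 9.197 TPM, and Higd1a 32.98, 33.1 and 31.1 and 91.8, 45.2 and 41.5 TPM, with every library labelled cKO above every control for both genes. Car9 had 0.272, 0.101 and 0.464 TPM in the controls and 6.77, 0.188 and 0.0597 TPM in the libraries labelled cKO, a level seen in 1 library alone. Adm, Bhlhe40 and Ndrg1 were likewise high in that library, at 8.8996, 5.18 and 4.96 times the mean of the other libraries labelled cKO. The remaining P4ha1 and Ero1l stood 2.79 and 3.89 times above them. All 12 hypoxia response genes, Car9 included, summed to 225, 186 and 208 TPM in the controls. In the libraries labelled cKO the sums were 851, 179 and 310 TPM, so library 2 lay below every control.

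Markers of other cells differed between these libraries too, but not all in the order of the members. Among the libraries labelled cKO, 7 of 8 endothelial markers were lowest and 6 of 7 ectoderm markers highest in library 3 by CPM. Red blood cell markers summed to 40472 TPM in library 1 labelled cKO and to 13788 to 23998 TPM in the other maxillary libraries. Endothelial markers summed to 487 TPM there, to 267 and 292 TPM in the other libraries labelled cKO and to 205 to 210.3 TPM in the controls. All 8 endothelial markers were higher in the libraries labelled cKO at an unadjusted p under 0.05 by edgeR, against 6.34% of all genes. Their median log2 fold change was 0.79. The 7 ectoderm markers tested had a median of 2.03 (4 higher at an unadjusted p under 0.05), at sums of 1.66 to 6.73 TPM in the controls and 8.30 to 14.2 TPM in the libraries labelled cKO. Cranial mesenchyme markers had a median of -0.45, with 3 of 8 lower at that threshold, where 842 of 14254 genes were lower. Macrophage markers summed to 49.4 TPM in library 1 labelled cKO and to 23.2 to 29.7 TPM in the other maxillary libraries, and 7 of the 7 tested were highest of their group there. Of the neuron and glia markers 6 of 6 were lower in the libraries labelled cKO, with a median of -0.94, and their sum was 159.7 TPM in control library 3 and 35.8 to 71.5 TPM elsewhere. Without library 1 labelled cKO the median was 0.44 for endothelial, 1.78 for ectoderm and 0.03 for red blood cell markers. It was 0.26 for macrophage, -0.29 for cranial mesenchyme and -1.26 for neuron and glia markers. There 7 of 8 endothelial and 4 of 7 ectoderm markers were higher at an unadjusted p under 0.05, against 5.4% of all genes. Of the cranial mesenchyme markers 1 of 8 was lower, where 12.2% of all genes had such a p in either direction. The part of these cells in the members' differences was not tested.

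**Figure D4:**
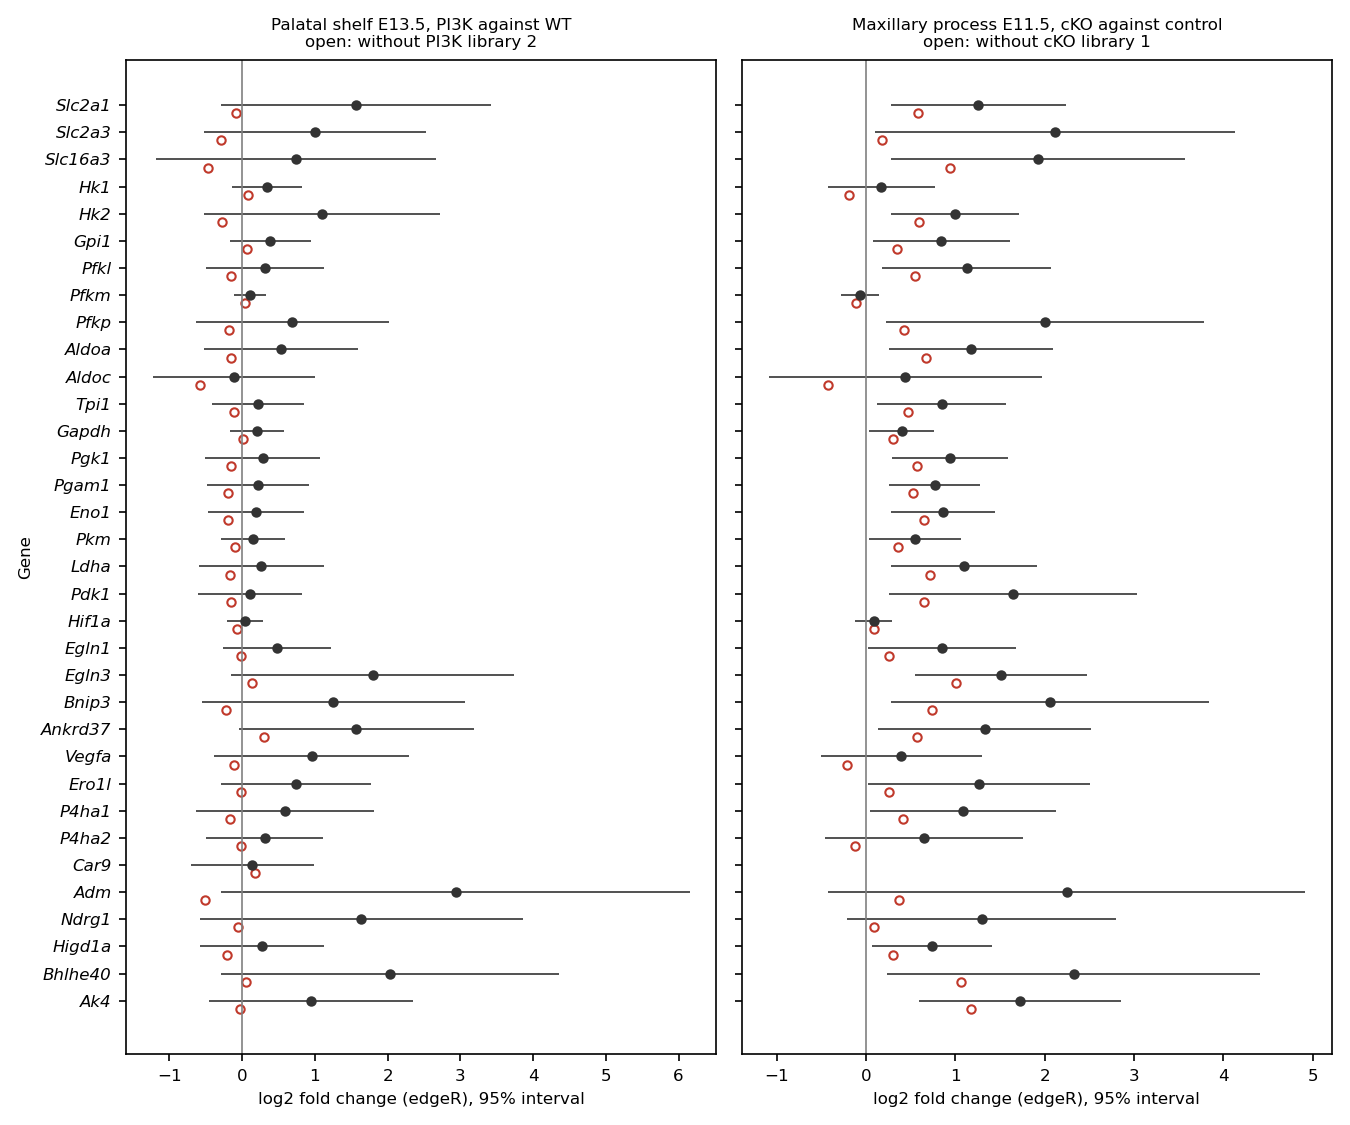
Log2 fold change of each member by edgeR with its 95% interval (filled), for PI3K against WT (left) and for libraries labelled cKO against controls (right), and without 1 library (open: PI3K library 2, library 1 labelled cKO). Left, the open points lie near 0 or below it. Right, 28 of 33 remain above 0.

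The libraries that stood apart differed in which members were most raised. Relative to the rest of its group, PI3K library 2 had the higher ratio for Slc2a1 (7.27 against 2.82), Hk2 (5.61 against 1.95), Egln3 (7.3000 against 2.25) and Adm (30.6 against 8.8996). Library 1 labelled cKO had the higher ratio for Slc2a3 (8.74 against 4.63), Pfkp (7.47 against 3.59) and Pdk1 (4.06 against 1.66). For Bnip3 the ratios were 6.19 and 5.73, and for Ldha 2.01 and 1.86. Each ratio describes 1 library, so the difference between tissues has no test.

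Genes of the same pathways outside the members were examined next. Of 37 other HIF targets tested in the palatal shelf, 32 were higher in PI3K with a median of 0.21, and 27 were highest of the 6 libraries in PI3K library 2. Without that library 20 were higher, with a median of 0.01. Among them Stc2, a secreted glycoprotein, had a log2 fold change of 1.995 (SE 0.95) and Ddit4, an inhibitor of mTOR signalling, 1.41 (SE 0.66), neither of which passed the FDR. They were 0.21 and 0.08 without PI3K library 2. In the maxillary process 27 of 36 were higher with a median of 0.36, and 26 were highest in library 1 labelled cKO. At an unadjusted p under 0.05, 7 were higher, against 6.34% of all genes. Without that library 21 were higher, with a median of 0.06, and 2 had an unadjusted p under 0.05, against 5.4%. Flt1, a VEGF receptor of endothelium, had the smallest p of these, with 1.42 (SE 0.32, adjusted p = 0.198 by edgeR), and 0.96 without library 1. Genes of the HIF machinery had medians of 0.02 and -0.03 in the 2 tissues. There Epas1, which encodes a second HIF α subunit, stood out in the maxillary process with 0.72 (SE 0.14, unadjusted p = 0.000917, adjusted p = 0.141 by edgeR), and 0.65 without library 1. The citrate cycle genes had medians of -0.01 and -0.01 and the pentose phosphate genes of -0.02 and 0.07, with 0 of 16 and 0 of 8 at an unadjusted p under 0.05 in either tissue. Other glycolysis and pyruvate genes had medians of -0.04 and -0.03. Of these Pgm1, which links glycogen to glycolysis, had 2.01 (SE 0.51) and the pyruvate dehydrogenase kinase Pdk3 0.57 (SE 0.14) in the maxillary process, both with an adjusted p of 0.2596 by edgeR. Without library 1 labelled cKO they had 1.16 and 0.41. The glucose transporter Slc2a4 was lower in the maxillary process, at -0.38 (SE 0.10, adjusted p = 0.2795 by edgeR), and at -0.39 without library 1.

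WT palatal shelves at E13.5 were compared with control maxillary processes at E11.5 to see how the members' levels differ between the earlier and later tissue. These libraries also served as the reference groups above. Tissue, stage, sequencing lane, deposited table and the floxed Srsf3 allele differ together here and cannot be told apart. By edgeR 12 of 34 members passed the FDR of 0.05 (10 higher and 2 lower in the palatal shelf), a smaller share than the 50.6% of all 15752 genes that passed (27.1% higher, 23.4% lower). The members' median was 0.27, and that of all genes 0.03. Leaving out 1 library moved the members' median to between 0.05 (without WT library 3) and 0.48 (without WT library 2), and it was 0.13 without control library 3. The roles went in different directions. All 12 hypoxia response genes had a positive log2 fold change (52% of all genes did) with 5 past the FDR, whereas all 5 genes of lower glycolysis had a negative one with 2 past the FDR.

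Bhlhe40 had 1.16, 1.08 and 0.855 TPM in the control maxillary process and 10.5, 3.04 and 10.7 TPM in the WT palatal shelf, a log2 fold change of 3.14 (SE 0.70) with an adjusted p of 0.00782 by edgeR. Ndrg1 went from 2.14, 2.26 and 3.604 TPM to 30.7, 9.302 and 23.1 TPM, a log2 fold change of 2.802 (SE 0.44) (adjusted p = 0.00189 by edgeR). Both separated completely in spite of a low WT library 2. The P4ha1 subunit had 37.9, 26.6 and 31.9 TPM in the earlier and 104, 47.1 and 87.7 TPM in the later tissue, and P4ha2 26.9, 27.9 and 44.7 and 79.7, 36.9 and 57.8 TPM. In log2 terms they differed by 1.13 (SE 0.29) and 0.91 (SE 0.27). P4ha1 kept its call in 5 of 6 fits without 1 library and P4ha2 in 2 of 6. Vegfa had 43.5, 38.4 and 37.2 TPM in the control maxillary process and 72.95, 76.8 and 109 TPM in the WT palatal shelf, a log2 fold change of 0.83 (SE 0.17) with an adjusted p of 0.00548 by edgeR. Egln3, among the oxygen sensors, had a log2 fold change of 1.35 (SE 0.30) (adjusted p = 0.00741 by edgeR), while Hif1a differed by -0.06 (SE 0.07) and Egln1 by 0.14 (SE 0.10).

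Aldoc changed most among the enzymes, from 1.58, 2.18 and 1.76 TPM in the control maxillary process to 12.7, 8.6001 and 20.7 TPM in the WT palatal shelf. The log2 fold change was 3.09 (SE 0.42), with an adjusted p of 0.00114 by edgeR, and the call held in 6 of 6 fits without 1 library. The far more abundant Aldoa differed by -0.03 (SE 0.26). Slc2a3 had 7.48, 5.97 and 6.96 TPM and 12.2, 16.2 and 16.9 TPM, a log2 fold change of 1.25 (SE 0.16) (adjusted p = 0.000806 by edgeR). Slc2a1, at 0.69 (SE 0.22) (adjusted p = 0.0329 by edgeR), and Pdk1, at 0.77 (SE 0.23) (adjusted p = 0.0279 by edgeR), were higher in the palatal shelf too, but kept their calls in only 3 and 2 of 6 fits without 1 library.

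In the other direction, Gapdh fell from 3721, 3477 and 2783 TPM to 1878, 2248 and 2074 TPM, a log2 fold change of -0.85 (SE 0.17) (adjusted p = 0.00471 by edgeR) that held in 6 of 6 fits without 1 library. Pkm had 1466, 1327 and 952 TPM in the control maxillary process and 783, 856 and 935 TPM in the WT palatal shelf, a log2 fold change of -0.71 (SE 0.20) (adjusted p = 0.0191 by edgeR) that held in 4 of 6. Eno1 was at -0.61 (SE 0.23), with an adjusted p of 0.0596 by edgeR and 0.0123 by DESeq2. The citrate cycle genes were also lower in the palatal shelf, 10 of 16 past the FDR with 0 higher, and 6 of 8 pentose phosphate genes were lower with 1 higher. Of the 37 other HIF targets 16 were higher and 4 lower. With all 12 libraries in 1 fit, which shares the spread of the libraries that stood apart, 5 members passed: Aldoc, Bhlhe40, Gapdh, Ndrg1 and Pkm. In that fit 7642 of 16877 genes passed. Markers of other cells differed as well. Ectoderm markers were higher in the palatal shelf in 9 of 9 (median log2 fold change 7.25), macrophage markers had a median of 1.59 and red blood cell markers one of -2.13, and their part in the members' differences was not tested.

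**Figure D5:**
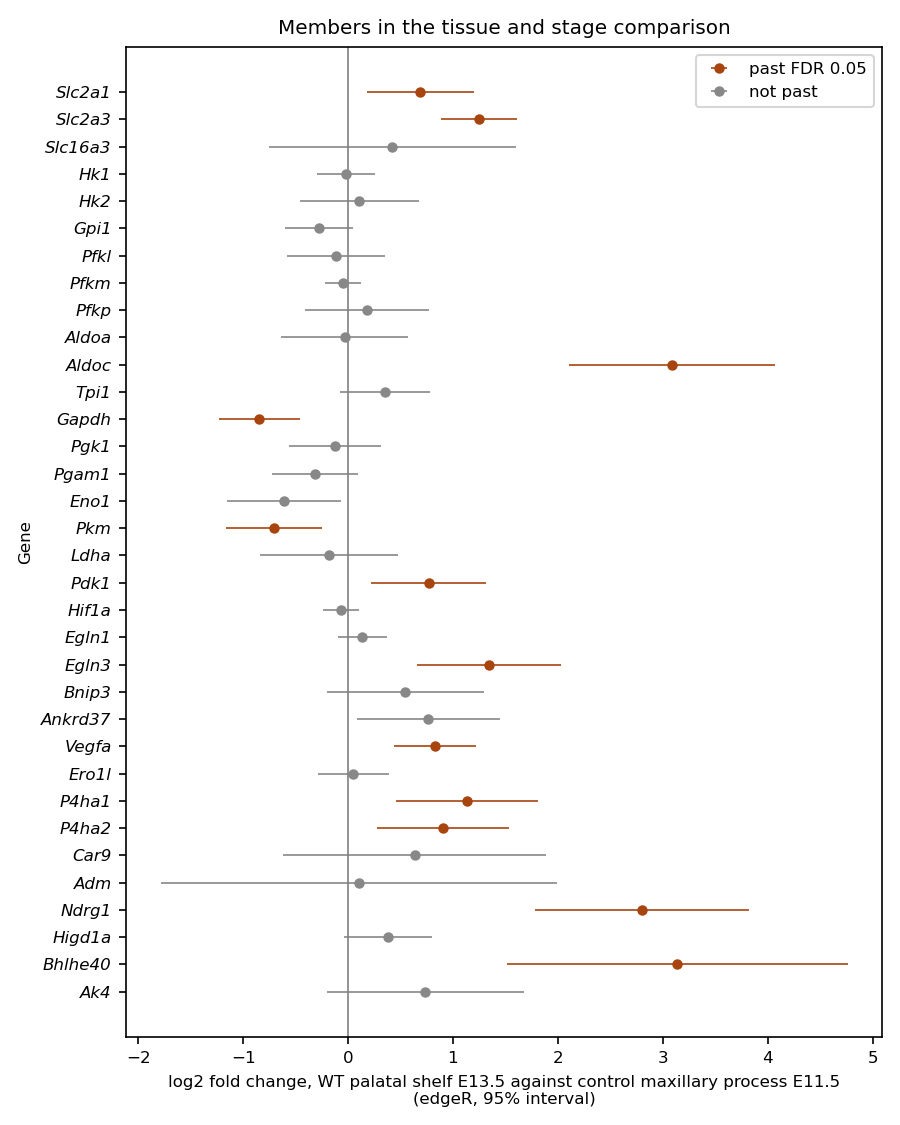
Log2 fold change of each member by edgeR in WT palatal shelf at E13.5 against control maxillary process at E11.5, with 95% intervals. Brown marks the 12 members past an FDR of 0.05, of which Gapdh and Pkm lie below 0 and the other 10 above it.

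Some totals are less certain than their counts imply, because the transcripts share 31-base stretches with other genes. The share was 54.7% for Pgk1, 37.1% for Pgam1, 34.7% for Pkm, 28.5% for Eno1, 27.2% for Gapdh, 20.3% for Bnip3, 19.6% for Ldha and 17.0% for Aldoa. For most of them the copies were nearly silent in these tables, but Pgam1-ps2 was listed at a mean of 56.3 TPM and Eno1b, which shares 27.8% with Eno1, at 628 TPM beside 652 TPM for Eno1. The sum of Eno1 and Eno1b was 1306 ± 366 TPM in the controls and 2052 ± 653 TPM in the libraries labelled cKO (SD, n = 3 each). A switch between transcripts of 1 gene, such as the alternative exons of Pkm, would not show in a total. The effective length, the estimated count per TPM, shifts when the mix of long and short transcripts does. It cannot show a switch between transcripts of equal length, so a switch of the Pkm exons was not tested. By limma it changed past the FDR in 0 of 32 members tested in the palatal shelf and 0 of 29 in the maxillary process, where 0.00775% and 0.00909% of all genes passed. At an unadjusted p under 0.05 the numbers were 0 and 4, where 3.9% and 5.16% of all genes passed.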

How the data were processed

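RNA of 12 libraries was tabulated per gene. Estimated counts per gene and TPM values (scaled for transcript length and depth) were made by the authors with Salmon, as the names of the deposited tables say. The submitters' processing notes list STAR 2.7.0, Salmon 1.1.0, DESeq2 1.28.1 and the build mm10 without roles, and the transcript index, trimming and strand setting are not given in the sources used here. Of 53392 identifiers, 53355 matched GENCODE M21, which supplied symbols and coordinates, and 0 columns were left out. The members and all gene lists were chosen with earlier results of these data known. Counts were rounded and tested with the 2-sided quasi-likelihood F-test of edgeR 4.0.16 (R 4.3.3), TMM and the default filter, on the 6 libraries of each comparison, with Benjamini-Hochberg adjustment over all genes tested. CPM are scaled by TMM. Standard errors were derived from the F statistic. Overlap between groups was judged on TPM, an alternative to CPM added after the data were seen. Levels are given for members in TPM. Tests are given in full for members past an FDR of 0.05, up to 12 per comparison, or otherwise for the 6 with the smallest p, and at most 4 genes are named per outside list. Other members' fold changes without 1 library, and the text's choice of promoters, fall outside that rule and were chosen after their values were seen. Effective length (count divided by TPM, centred on the median gene) was tested with limma 3.58.1 where each of the 6 libraries had a count of 50 or more. Alternatives were DESeq2 1.42.0, limma on log2 TPM with a pseudocount of 1 or 0.1, other normalisations and filters, a replicate block, all 12 libraries in 1 fit and leaving out each library. The tests were also tried on simulated data. With 3 against 3, a permutation test cannot go below p = 0.1, so none was used. Promoters came from RefSeq (GRCm38.p6), where 31 of 34 members matched by symbol or, for Ero1l, by its other symbol Ero1a.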

Additional observations from a re-analysis of the deposited data

How the results depend on the processing

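Normalisation by DESeq2-type size factors or the upper quartile changed no count of called members by over 1.5 times in any comparison. Without the low-count filter, 5 palatal members had an unadjusted p under 0.05 (2.53% of all genes did) and 143 maxillary genes passed the FDR. DESeq2 called 4 palatal genes, 376 maxillary genes and 5 maxillary members. By limma, 14 maxillary members had an unadjusted p under 0.05 on log2(TPM + 1) and 16 on log2(TPM + 0.1). Of all genes 11.0% and 11.1% did. With all 12 libraries in 1 fit, 3 palatal members had an unadjusted p under 0.05 (1.40% of all genes did) and 105 maxillary genes passed the FDR. In the tissue and stage comparison of that fit 5 members passed the FDR, against 7642 of 16877 genes. There 5 members had an unadjusted p under 0.05, against 52.7% of all genes. Leaving out 1 library at a time gave 0 to 14 palatal members at an unadjusted p under 0.05, the highest without PI3K library 3 (2.38% of all genes). In the maxillary process it gave 2 to 29 genes past the FDR, 8 to 28 members at an unadjusted p under 0.05 and a median of 0.42 to 1.35. Of all genes, 6.88% to 12.7% had such a p in these fits. In the tissue and stage comparison the fewest members past the FDR were 7, without control library 2, where 6185 of 16571 genes passed. The most were 15, without WT library 2, where 7410 of 15815 genes passed. Palatal fold changes ranged from -0.51 to 3.50 for Adm, from -0.080 to 2.04 for Slc2a1 and from -0.063 to 2.18 for Ndrg1, each negative without PI3K library 2. The cause of these changes was not tested, other than the loss of a library. In the tissue and stage comparison the median of all genes was 0.16 by limma on log2(TPM + 1) and 0.29 without the filter, against 0.03, so its directions are relative to that shift. With the replicate number as a block (replicate block), 40 maxillary genes and 0 maxillary members passed the FDR, 0 palatal members and 10 members between tissues. Between tissues 6835 of 15752 genes passed in that fit. Same-numbered libraries deviated together with correlations of 0.53, 0.22 and -0.22 in the palatal shelf and 0.08, 0.11 and 0.23 in the maxillary process, so the numbers were not taken to pair them.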

Other observations

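The split between Eno1 and its near copy Eno1b differed in 2 libraries. Eno1b made up 49.3% to 52.6% of the sum of both genes in 10 libraries, but 41.8% in library 2 and 43.3% in library 3 labelled cKO. In library 1 labelled cKO it was 50.7%, within the range of the controls (49.3% to 51.1%). Eno1b had a log2 fold change of 0.58 (SE 0.34, adjusted p = 0.546 by edgeR) in the maxillary process, where Eno1 had 0.86 (SE 0.25). Between tissues Eno1b was lower in the WT palatal shelf by -0.79 (SE 0.26, adjusted p = 0.0368 by edgeR), where Eno1 had -0.61. Which reads belong to which gene was not tested.

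Skeletal muscle markers, which no comparison of the members used, summed to 235 TPM in PI3K library 1, 31.6 TPM in library 2 and 128 TPM in library 3, against 1.35 to 55.1 TPM in WT. The PI3K library with the highest members thus had the lowest muscle sum of its group. By edgeR 8 of 8 muscle markers had a higher fitted level in PI3K than in WT, with 0 past the FDR. Their median log2 fold change was 2.72, and 3.21 without PI3K library 2. The part of muscle cells in the members' levels was not tested. Neuron and glia markers ran from 34.2 to 63.8 TPM over the 6 palatal libraries.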
